A study of Homo sapiens with 14 samples.

Results

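The active part of the human kallikrein locus on chromosome 19 holds 6 genes, KLK1, KLK15, KLK3, KLK2, KLKP1 and KLK4 in map order, which the study treats as one domain of long-range epigenetic activation (LREA). The members were taken as this fixed list of symbols, a rule that uses no measured value. All 6 of 6 were measured, each by 1 probe set, among 16098 probe sets that the platform annotation assigns to exactly 1 gene name (14884 different genes). Expression was measured on 14 Affymetrix Human Gene 2.0 ST arrays in LNCaP, an established androgen-responsive prostate cancer line, so that every group shares the same cells and culture medium. Of the 7 groups, 6 were transfected, with a pool of siRNAs that target CTCF or with a pool without a target (control siRNA), both at 20 nM, and RNA was taken at 24, 72 and 144 h. For the last time, cells were passaged at 72 h and received siRNA a second time. The remaining group was left untransfected, and its labels give no time field, although both of its description codes start with 72. Each group holds 2 arrays, described as biological duplicates.

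Kallikreins are secreted serine proteases, made as inactive precursors and switched on by cleavage, often by one another. In prostate luminal cells androgen drives several of them, and their products are released into seminal fluid, where prostate-specific antigen, the product of KLK3, cuts the gel-forming semenogelins. KLK2 encodes a trypsin-like protease that can activate the precursor of prostate-specific antigen, and KLK4 and KLK15 encode further proteases able to do so in vitro. KLK1 encodes tissue kallikrein, which releases kinins from kininogen, and KLKP1 is a transcribed pseudogene. CTCF is a DNA-binding protein that helps to insulate neighbouring chromatin domains, and the knockdown asked whether RNA of these genes changes when CTCF is lowered. The study reports that CTCF stayed bound at the border between the active part and its repressed neighbour after knockdown, while other sites in the locus lost it. Whether the genes depend on those border sites was therefore not tested by these arrays. The study tested it separately by deleting the border sites with CRISPR. By quantitative PCR it found expression in the active part unchanged, while kallikreins of the repressed neighbour rose. From the arrays it reports no significant change across the locus at 144 h.

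KLK3 and KLK2 lie next to each other and are read in the same direction, while KLK4 is read from the opposite strand. Start regions are shown for these 3 genes because they were the members called in at least 1 of the comparisons made, a choice made after their values were seen. RefSeq (GRCh38.p14) start regions were found for 4 of the 6 members (KLK15, KLK3, KLK2 and KLK4). The 250 bases before the annotated start are given 5′ to 3′. For KLK3 (chr19:50854665-50854914, plus strand) and KLK2 (chr19:50873189-50873438, plus strand) the capitals mark 15 bases at the place of the androgen response element known in the KLK3 promoter. For KLK4 (chr19:50911396-50911645, minus strand, the outer of 2 annotated starts) they mark its only match to GAACA, an arm of such elements.
KLK3: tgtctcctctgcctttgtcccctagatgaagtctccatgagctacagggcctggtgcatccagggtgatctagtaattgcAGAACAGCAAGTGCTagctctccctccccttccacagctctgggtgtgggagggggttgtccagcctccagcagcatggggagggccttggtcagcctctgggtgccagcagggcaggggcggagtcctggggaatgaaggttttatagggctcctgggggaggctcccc
KLK2: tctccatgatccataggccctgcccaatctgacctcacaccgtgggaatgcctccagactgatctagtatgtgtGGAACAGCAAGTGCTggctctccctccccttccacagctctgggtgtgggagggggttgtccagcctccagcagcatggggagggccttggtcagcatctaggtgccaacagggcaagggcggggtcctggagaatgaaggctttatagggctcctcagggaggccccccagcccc
KLK4: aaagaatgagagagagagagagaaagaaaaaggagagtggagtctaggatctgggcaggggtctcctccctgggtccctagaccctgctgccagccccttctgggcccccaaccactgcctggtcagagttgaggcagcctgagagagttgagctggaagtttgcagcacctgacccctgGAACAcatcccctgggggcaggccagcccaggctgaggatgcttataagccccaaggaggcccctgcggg
The windows of KLK3 and KLK2 were identical at 205 of 250 bases (82.0%) in a global alignment, with an unbroken identical run of 80 bases. KLK3 and this KLK4 window shared 129 bases (51.6%), and the other pairs of different members shared between 44.0% and 53.2%. Both strands were searched. The 14 letters GAACAGCAAGTGCT, which both genes share, lay at -169 to -156 from the start of KLK3 and at -175 to -162 from that of KLK2. The letters were taken from these 2 windows, so their matches there were fixed in advance. Of all 35116 RefSeq windows of this length, 2 (0.0057%) held them, those of KLK3 and KLK2. How rare other runs of 14 letters from these windows are was not tested. The palindrome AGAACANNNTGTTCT was in none of the members' windows and in 0.00285% of all windows. The arm GAACA, which lies inside the longer runs, was in 30.6% of all windows. AGGGGGC, letters from the core of the CTCF motif, was in none of the members' windows, against 13.3% of all windows. These are matches of letters only, since no binding was measured on these arrays.

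The siRNA target was depleted in each knockdown array. CTCF read 6.73 and 7.25 (log2 intensity) at 24 h, 7.46 and 7.09 at 72 h and 6.84 and 6.94 at 144 h, against 8.98 to 9.19 in the 6 control siRNA arrays. Values are robust multi-array average (RMA) log2 intensities, which have no read depth, and a level can be compared between arrays for 1 probe set but not between probe sets. Array medians ran from 3.67 to 3.72 and replicate arrays correlated at 0.992 to 0.994. Fewer expressing cells and less RNA per cell cannot be told apart in such bulk RNA. The 7 measured luminal prostate markers averaged 7.89 and 7.90 in CTCF siRNA cells at 144 h, against 8.17 and 8.24 in control siRNA cells at 144 h, and 8.04 to 8.32 in the other 10 arrays. These markers did not move together at 144 h. CD24 (log2 difference -1.71 ± 0.16, limma adjusted p = 0.000428) and FOLH1 (-0.61 ± 0.11, adjusted p = 0.0138) were called lower with CTCF siRNA than with control siRNA. GRHL2 was called higher (0.61 ± 0.11, adjusted p = 0.0161), and the remaining luminal markers were not called. Markers of other cell types had array means of 3.46 to 3.74 for the 5 basal, 3.14 to 3.34 for the 7 neuroendocrine and 2.44 to 2.68 for the 3 stromal genes. Of the 4 immune markers, CD68, a lysosomal protein common in macrophages, was higher at 144 h with CTCF siRNA (log2 difference 1.17 ± 0.13 (SE, n = 2 arrays per group), limma adjusted p = 0.00092), and their mean was 4.10 and 4.40 there, against 3.90 and 4.03 in control cells. The part of these marker shifts in the kallikrein values was not tested.

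None of the 6 kallikrein genes passed the test for a difference between CTCF siRNA and control siRNA cells at 24, 72 or 144 h (limma, Benjamini-Hochberg adjusted p under 0.05 over the 16098 probe sets). The share of all probe sets called in the same comparison was 0.0124% at 24 h, 0.186% at 72 h and 3.76% at 144 h, so that at the earlier times almost nothing else was called either. At an unadjusted p under 0.05 the members' counts were 0, 0 and 1 of 6 (KLK4 at 144 h), against 6.03%, 8.03% and 16.4% of all probe sets, so that 1 of 6 was near the background share. KLK3 read 7.96 and 8.03 in CTCF siRNA cells at 24 h, against 8.15 and 8.20 in control siRNA cells. The CTCF siRNA arrays were both below the control arrays, by 0.18 ± 0.18 on the log2 scale in the fit (SE, adjusted p = 0.975). At 72 h the KLK3 groups overlapped, with 8.29 and 8.33 in CTCF siRNA cells and 8.46 and 8.09 in control cells. The 144 h arrays overlapped as well, since one CTCF siRNA array, at 8.05, lay below and the other, at 8.58, beside the control arrays at 8.32 and 8.59.

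**Figure D1:**
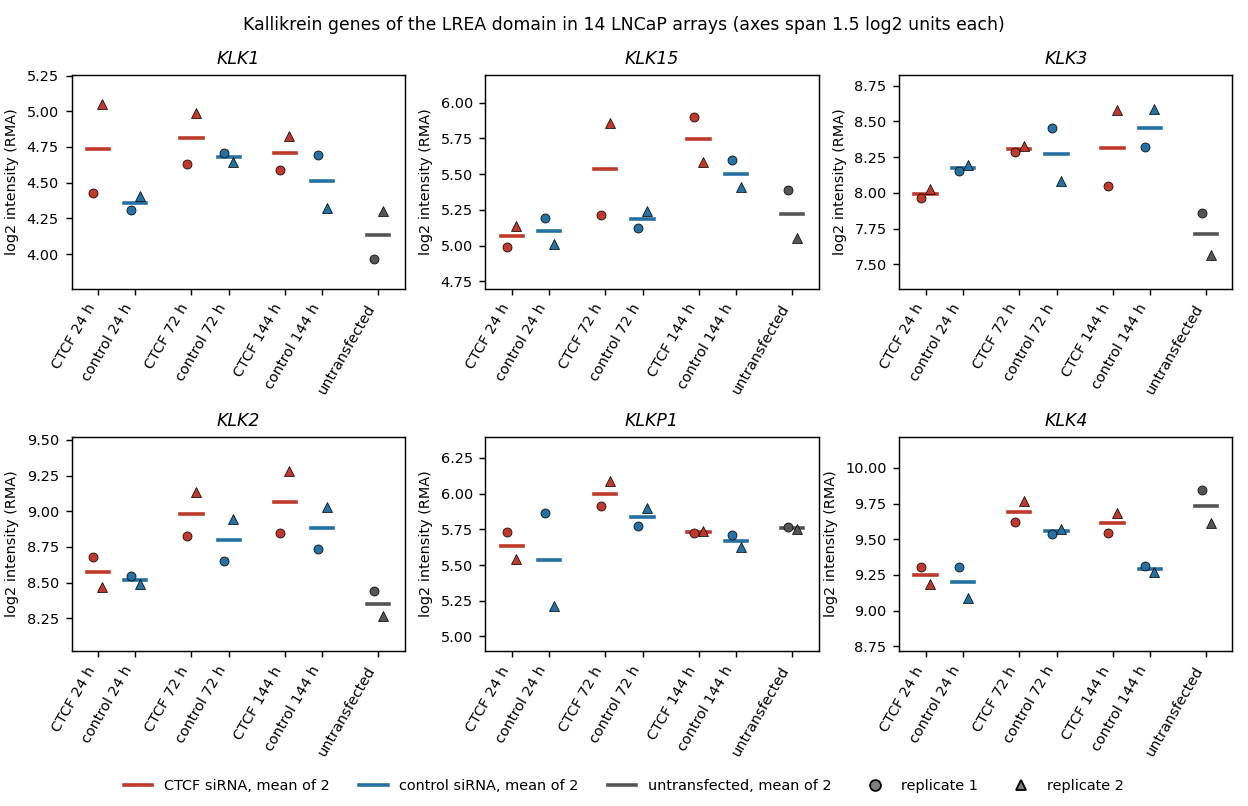
Log2 RMA intensity (y axis) of the 6 genes in each of the 14 arrays, by siRNA and time (x axis), with replicates as points and group means as bars. CTCF and control siRNA arrays overlap for most of the genes at each time, though duplicates of KLK1, KLK15 and KLKP1 lie far apart in some groups. In the KLK3, KLK2 and KLK1 panels both untransfected arrays lie below all 12 siRNA arrays, only just for KLK2 and KLK1.

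KLK2 followed the same small spread. It measured 8.68 and 8.47 in CTCF siRNA cells and 8.55 and 8.49 in control cells at 24 h, 8.83 and 9.14 against 8.65 and 8.94 at 72 h, and 8.85 and 9.28 against 8.74 and 9.03 at 144 h. The groups overlapped at each time, and the log2 differences of 0.06, 0.19 and 0.18 all had 95% intervals that included 0. KLK4 was the member whose 144 h interval did not include 0, with 9.54 and 9.69 in CTCF siRNA cells against 9.31 and 9.27 in control cells (log2 difference 0.32, interval 0.05 to 0.60). The interval lay above 0 in 9.34% of all probe sets, and the adjusted p of KLK4 was 0.213. Earlier, KLK4 measured 9.31 and 9.19 in CTCF siRNA cells and 9.31 and 9.09 in control cells at 24 h, and 9.62 and 9.77 against 9.54 and 9.57 at 72 h. Only the 72 h and 144 h arrays were thus apart for KLK4.

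Duplicates of KLK1, KLK15 and KLKP1 sometimes lay far apart. KLK1 had 4.43 and 5.05 in CTCF siRNA cells at 24 h, against 4.31 and 4.41 in control cells, and although these arrays did not overlap the difference of 0.38 ± 0.20 had an adjusted p of 0.865. Its later groups overlapped, at 4.63 and 4.99 in CTCF siRNA cells against 4.71 and 4.65 in control cells at 72 h, and 4.59 and 4.83 against 4.70 and 4.32 at 144 h. The widest gaps between duplicates were those of KLKP1 in control cells at 24 h and of KLK15 in CTCF siRNA cells at 72 h. KLK15 measured 5.21 and 5.86 in CTCF siRNA cells at 72 h, against 5.12 and 5.24 in control cells, while at 24 h it had 4.99 and 5.14 against 5.19 and 5.01, and at 144 h 5.90 and 5.58 against 5.60 and 5.41. KLKP1 measured 5.73 and 5.54 in CTCF siRNA cells at 24 h, against 5.86 and 5.21 in control cells. Its arrays were apart at 72 h (5.91 and 6.08 in CTCF siRNA cells, 5.77 and 5.90 in control cells) and at 144 h (5.72 and 5.74, against 5.71 and 5.63), by log2 differences of 0.16 and 0.06. In all, 2 of the 6 genes had non-overlapping arrays at 24 h (KLK1 higher and KLK3 lower) and 2 of 6 at each later time (KLKP1 and KLK4, both higher), against 35.7%, 35.1% and 47.0% of all probe sets in either direction.

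Averaging the CTCF effect over the 3 times narrowed the intervals without a call, against 2.58% of all probe sets called in that contrast. The mean log2 differences were 0.24 ± 0.11 for KLK1, 0.18 ± 0.12 for KLK15, -0.09 ± 0.10 for KLK3, 0.14 ± 0.09 for KLK2, 0.11 ± 0.10 for KLKP1 and 0.17 ± 0.07 for KLK4 (SE, 6 arrays with each siRNA). KLK3 was thus the single member with a negative estimate. Its 95% interval, -0.32 to 0.13, leaves room for a modest loss or gain, whereas that of KLK4, 0.01 to 0.33, lay just above 0, as it did in 8.2% of all probe sets, at an adjusted p of 0.278. The median over the 6 genes was 0.16, beside 0.00 over all probe sets. Interaction contrasts, in which the CTCF effect at one time is subtracted from that at another, gave no call for any member either. The lowest adjusted p among the 6 genes was 0.956 for 72 h against 24 h, 0.855 for 144 h against 72 h and 0.632 for 144 h against 24 h, with 0%, 0.0186% and 0.795% of all probe sets called.

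**Figure D2:**
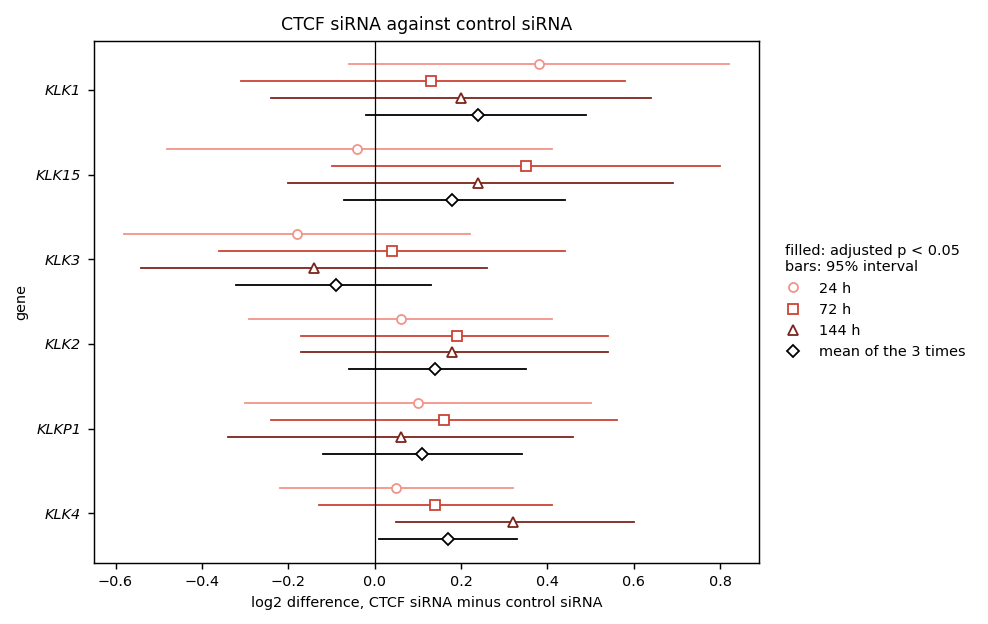
Log2 difference between CTCF siRNA and control siRNA (x axis) for each gene (y axis) at 24, 72 and 144 h and as the mean of the 3 times, with 95% intervals; no symbol is filled, since no adjusted p was under 0.05. Only the KLK4 intervals at 144 h and for the mean lie wholly above 0.

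Values at 72 h were set against those at 24 h within each siRNA. In CTCF siRNA cells all 6 estimates for 72 h against 24 h were positive (0.07 to 0.47, median 0.38, beside -0.01 over all probe sets), and in control cells, which are other arrays, all 6 were positive too (0.08 to 0.36, median 0.29). A higher mean at 72 h with both siRNAs was found in 29.6% of all probe sets. None of these single contrasts was called (0.447% of all probe sets called with CTCF siRNA and 0.087% with control siRNA). The arrays did not overlap for 5 of 6 genes with CTCF siRNA and for 3 of 6 with control siRNA, all higher at 72 h, against 20.3% and 21.9% of all probe sets in that direction.

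Taking the mean over both siRNAs, a contrast added after these values had been seen, KLK4 was called higher at 72 h than at 24 h (log2 difference 0.40 ± 0.09, 1.32-fold, adjusted p = 0.0363, 4 arrays per time), as were 1.80% of all probe sets. Its arrays lay between 9.54 and 9.77 at 72 h, against 9.09 to 9.31 at 24 h, with no overlap. The call was kept without either of the CTCF siRNA 144 h arrays and lost in the other 10 of 12 fits that left out an array, at adjusted p up to 0.139. KLK2 and KLKP1 gave 0.34 ± 0.11 and 0.33 ± 0.13 (adjusted p = 0.124 and 0.18). At 144 h the estimates against 24 h were 0.54 ± 0.14 for KLK15 and 0.43 ± 0.11 for KLK2, both with an adjusted p of 0.0741, and none of the 6 was called, against 3.32% of all probe sets. KLK15 had its highest single contrast in CTCF siRNA cells, with 5.90 and 5.58 at 144 h against 4.99 and 5.14 at 24 h (log2 difference 0.68 ± 0.20, adjusted p = 0.112, with 3.39% of all probe sets called), and passed the test there without either CTCF siRNA 72 h array. Between 144 h and 72 h the mean estimates ran from -0.22 to 0.26 with none called (0.0497% of all probe sets). The 24 h arrays carry other description numbers (3 and 4) than the 72 h and 144 h arrays (1 and 2). The labels do not say what these numbers mark, and in every contrast with 24 h it cannot be told apart from time.

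**Figure D3:**
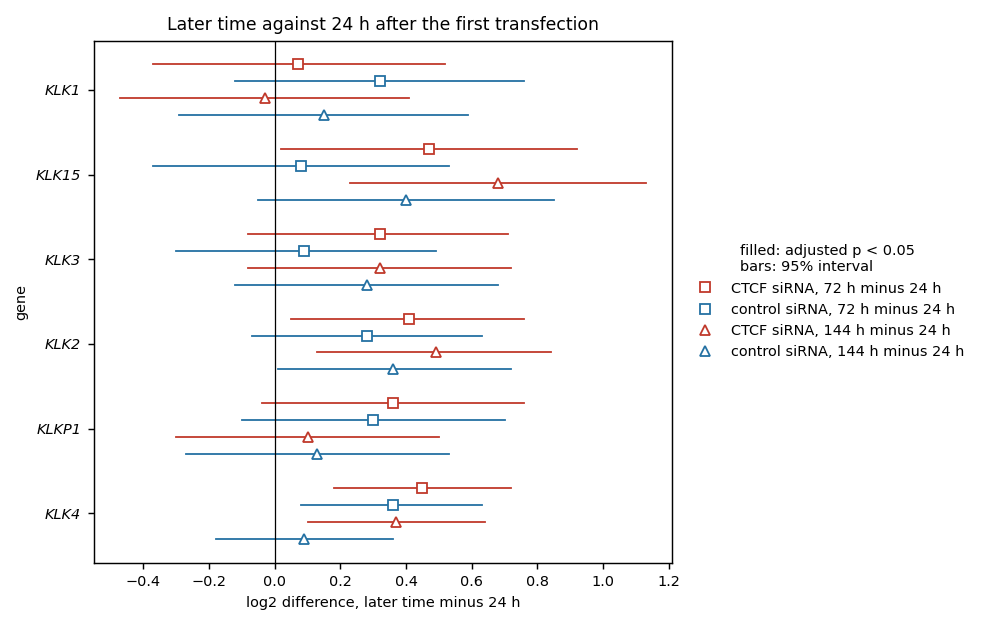
Log2 difference of 72 h and 144 h against 24 h (x axis) for each gene (y axis), separately with CTCF siRNA and control siRNA, with 95% intervals. The 72 h estimates are above 0 for all 6 genes with both siRNAs, and no symbol is filled.

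The siRNA-treated cells were next compared with cells that had received no siRNA. These comparisons all share the same 2 untransfected arrays, which have no time field, so they are set side by side and not counted as separate evidence. KLK3 measured 7.96 to 8.59 in the 12 siRNA arrays, all above the 7.86 and 7.57 of untransfected cells. Its log2 differences were 0.28, 0.60 and 0.60 with CTCF siRNA and 0.46, 0.56 and 0.74 with control siRNA at 24, 72 and 144 h, of which the last had an adjusted p of 0.0505. KLK2 was placed likewise but only just, at 8.47 to 9.28 in siRNA-treated cells against 8.44 and 8.26 in untransfected cells. Called higher was KLK2 in CTCF siRNA cells at 144 h, with 8.85 and 9.28 (log2 difference 0.71 ± 0.17, 1.64-fold, adjusted p = 0.019), as were 6.30% of all probe sets. Without replicate 2 of the untransfected arrays its adjusted p was 0.158, and without replicate 2 of the CTCF siRNA 144 h arrays 0.167.

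KLK4 ran the other way. It measured 9.31 and 9.19 in CTCF siRNA cells and 9.31 and 9.09 in control siRNA cells at 24 h, against 9.84 and 9.62 in untransfected cells, with no overlap. Both 24 h contrasts were called lower, with log2 differences of -0.48 ± 0.13 with CTCF siRNA (0.716-fold, adjusted p = 0.0363) and -0.53 ± 0.13 with control siRNA (0.693-fold, adjusted p = 0.0274), beside 3.83% and 3.58% of all probe sets called lower. The untransfected arrays carry description numbers 1 and 2 in codes that begin with 72, and the 24 h arrays numbers 3 and 4, so that transfection, time and whatever the numbers mark cannot be told apart here. Leaving out any single array of the groups compared ended these calls, with adjusted p of 0.057 to 0.208 for CTCF siRNA and 0.0515 to 0.217 for control siRNA, and the CTCF siRNA call was also lost without either control siRNA 144 h array (0.0532). At 72 h, where 3.22% of all probe sets were called with CTCF siRNA and 0.478% with control siRNA, KLK4 was within 0.17 of the untransfected cells with either siRNA (-0.04 with CTCF siRNA and -0.17 with control siRNA). At 144 h the estimates were -0.11 with CTCF siRNA and -0.44 with control siRNA, the second at an adjusted p of 0.0856, with 4.14% of all probe sets called.

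KLK1 measured 4.31 to 5.05 in the 12 siRNA arrays, against 3.97 and 4.30 in untransfected cells, so that its lowest siRNA array only just cleared the untransfected ones. Its log2 differences ran from 0.22 to 0.68, and none was called. KLK1 also read low. Its mean level was at percentile 47.4 of all probe sets, beside 58.9 for KLK15, 64.9 for KLKP1 and 93.2 to 98.5 for KLK3, KLK2 and KLK4. Kallikreins of the repressed neighbour were at 15.1 (KLK12) to 53.5 (KLK8). Such ranks across probe sets are only a rough guide, and the distance of KLK1 from background is unknown. The siRNA arrays ran from 4.99 to 5.90 for KLK15 and from 5.21 to 6.08 for KLKP1, on both sides of the untransfected arrays (5.39 and 5.05 for KLK15, 5.76 and 5.76 for KLKP1), with no call. A pattern in which all 12 siRNA arrays lay above both untransfected arrays was thus seen in 3 of the 6 genes, only just for KLK2 and KLK1, and in 5.59% of all probe sets. The opposite pattern was seen in 0 of 6 and in 5.45%. The mean over all 6 siRNA groups against untransfected cells, also added after the values had been seen, was called for KLK3 (0.54 ± 0.14, adjusted p = 0.0352) and KLK2 (0.45 ± 0.13, adjusted p = 0.0486), as for 5.05% of all probe sets called higher, but not for KLK1 (0.50 ± 0.15, adjusted p = 0.057) or KLK4 (-0.30 ± 0.10, adjusted p = 0.0821). Over the 14 fits that left out 1 array the adjusted p reached 0.389 for KLK3 and 0.458 for KLK2, with 5 and 2 fits keeping the call.

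**Figure D4:**
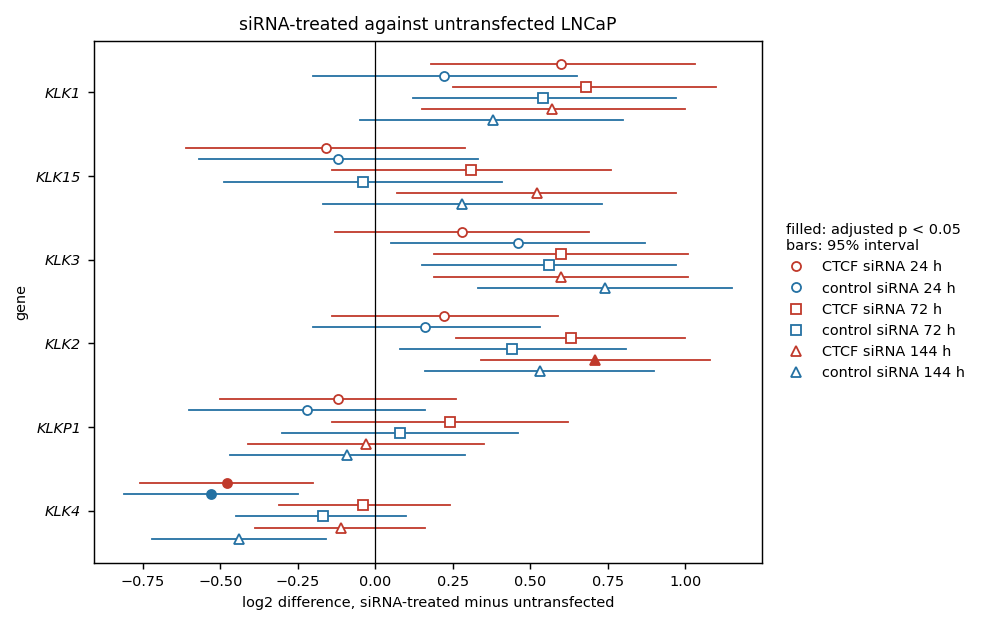
Log2 difference of each siRNA group against untransfected cells (x axis) for each gene (y axis), with 95% intervals and filled symbols where the adjusted p was under 0.05. Filled are KLK4 at 24 h with both siRNAs, below 0, and KLK2 at 144 h with CTCF siRNA, above 0.

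Across the 14 arrays the 6 genes did not form 1 block. KLK3 and KLK2 had the highest Pearson r of the 15 pairs (0.74, or 0.45 once group means were subtracted), followed by KLKP1 and KLK4 (0.71 on both measures) and KLK15 and KLK2 (0.63, or 0.13 within groups). KLK4 had r of -0.11 with KLK3 and 0.28 with KLK2 over the arrays, but 0.35 and 0.64 within groups. KLK1 had its highest r with KLK2 (0.47, or -0.17 within groups). These are descriptions over 14 arrays that share 7 groups. KLK3 and KLK2 are close paralogues, and whether RNA of one binds probes of the other was not tested.

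**Figure D5:**
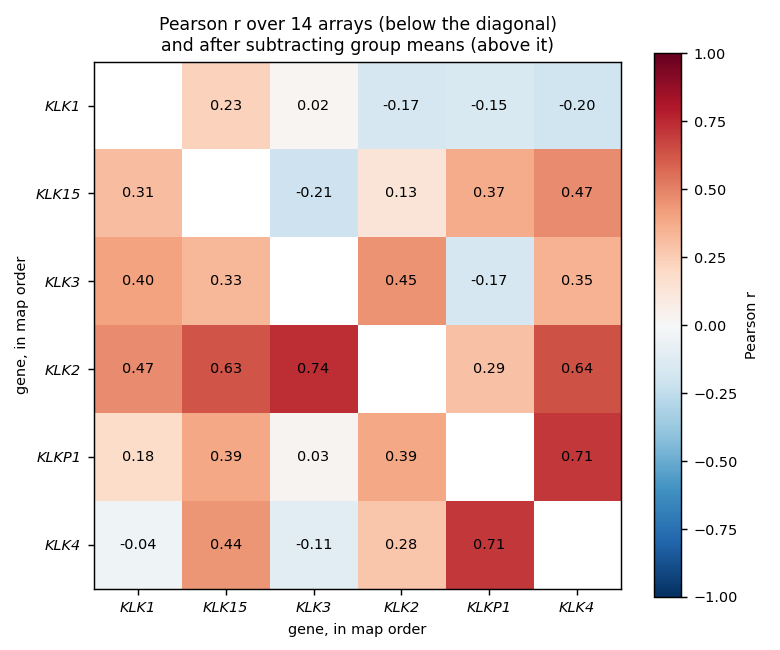
Pearson r between each pair of genes, in map order on both axes, over 14 arrays (below the diagonal) and after subtracting the group means (above it). The pair KLK3 and KLK2 (0.74) and the pair KLKP1 and KLK4 (0.71) are the highest below the diagonal.

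Among 10194 candidate probe sets with an SD of at least 0.15, the genes with the pattern most like each member were looked up over the same 14 arrays. KLK2 was most like FAM30A, MYC and DDX11L10 (r = 0.90, 0.89 and 0.86), of which MYC encodes a growth-promoting transcription factor. KLK3 was most like NFASC, LHX2 and RIN2 (0.84, 0.84 and 0.83), and KLK4 most like CUBN, KIAA0825 and CBR3-AS1 (0.90, 0.89 and 0.87). For KIAA0825 and CBR3-AS1 the likeness was between groups, as r was -0.11 and 0.05 once group means were subtracted. KLK15 was most like SIM2, ERP27 and SOWAHB (0.93, 0.90 and 0.90), KLK1 most like ZBTB45, ENPP3 and LINC02800 (0.80, 0.80 and 0.76) and KLKP1 most like FRMD8, CCL24 and DLX4 (0.91, 0.88 and 0.84). With this many candidates high values are common, and the candidate ranked 100th still had an r of 0.61 to 0.76 depending on the member.

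The neighbouring kallikreins of the repressed, long-range epigenetically silenced (LRES) part of the locus were measured for 10 of 10 genes, and none was called in CTCF siRNA cells against control cells at 24, 72 or 144 h. KLK14 encodes another trypsin-like protease. In CTCF siRNA cells at 144 h it was called higher than in untransfected cells (log2 difference 0.73 ± 0.13, adjusted p = 0.00501), as were 6.30% of all probe sets. Against CTCF siRNA cells at 24 h it was called higher too (0.62 ± 0.14, adjusted p = 0.038), as were 2.11% of all probe sets. The mean of both siRNAs at 144 h against 24 h gave 0.45 ± 0.10 (adjusted p = 0.0356), with 1.99% of all probe sets called higher. Of the genes flanking the locus 6 of 11 were measured, also with none called against control siRNA. SIGLECL1 among them was called higher at 72 h than at 24 h in the mean of both siRNAs (0.42 ± 0.10, adjusted p = 0.0485), the contrast in which KLK4 was called. So were 1.80% of all probe sets, and no other measured flanking gene. SIGLECL1 read low, at 2.29 to 3.08 over the 14 arrays, below the array medians of 3.67 to 3.72, although a level set against other probe sets is only a rough guide.

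Androgen response genes outside the kallikreins did include calls. Of the 19 measured, 6 were called higher and 1 lower at 144 h with CTCF siRNA against control siRNA, beside 2.37% and 1.40% of all probe sets. The largest were SGK1, a hormone-induced kinase (2.17 ± 0.15, adjusted p = 9.6e-05), MAF (1.26 ± 0.17, adjusted p = 0.0034), EAF2 (1.16 ± 0.20, adjusted p = 0.0105) and HERC3 (0.84 ± 0.16, adjusted p = 0.0191). In the same contrast KLK3 and KLK2, the best known androgen targets among the 6 genes, had log2 differences of -0.14 (interval -0.54 to 0.26) and 0.18 (interval -0.17 to 0.54). The listed genes were picked with earlier results of these arrays known and are described without a test of the list.

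Some of these genes were also called between 72 h and 24 h and against untransfected cells. In the mean of both siRNAs, 1 of the 19 androgen response genes was called higher at 72 h than at 24 h, NDRG1, a stress and differentiation gene (0.58 ± 0.12, adjusted p = 0.0353), and 3 were called lower, HPGD, which degrades prostaglandins (-0.93 ± 0.09, adjusted p = 0.00338), ZBTB10 (-0.90 ± 0.07, adjusted p = 0.00127) and FKBP5 (-0.66 ± 0.09, adjusted p = 0.00799), beside 1.80% of all probe sets called higher and 2.01% lower. KLK4 was called higher in that contrast. Against untransfected cells at 24 h, FKBP5, a chaperone partner of steroid receptors, was called higher with CTCF siRNA (1.17 ± 0.13, adjusted p = 0.000603) and with control siRNA (1.20 ± 0.13, adjusted p = 0.000619), in the comparisons where KLK4 was called lower. HPGD was called higher there as well, by 1.19 ± 0.13 with CTCF siRNA and 0.95 ± 0.13 with control siRNA. So was CENPN (0.90 ± 0.17 and 0.76 ± 0.17). Of all probe sets, 5.42% with CTCF siRNA and 3.99% with control siRNA were called higher. The members did not all follow KLK4 there. KLK3, KLK2 and KLK1 had estimates above 0 with CTCF siRNA (0.28, 0.22 and 0.60) and with control siRNA (0.46, 0.16 and 0.22), none called. KLK15 and KLKP1 had estimates below 0, also not called.

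RNA levels of genes that encode kallikrein inhibitors and substrates were also examined. Only 3 of 17 listed inhibitors were measured (A2M, PZP and WFDC2), of which A2M encodes a plasma protein that traps proteases, and none was called against control siRNA. Of 27 listed substrates and targets 16 were measured. F2R, which encodes a thrombin receptor opened by proteolytic cleavage, was called lower with CTCF siRNA at 144 h (log2 difference -1.90 ± 0.15, adjusted p = 0.000137) and in the mean of the 3 times (adjusted p = 0.000308), and no other substrate was called in either. IGFBP5, an insulin-like growth factor binding protein, was called higher at 144 h than at 24 h with control siRNA (1.57 ± 0.15, adjusted p = 0.0039, beside 0.137% of all probe sets) and with CTCF siRNA (0.68 ± 0.15, adjusted p = 0.036, beside 2.11%). The difference between those changes was -0.89 ± 0.21 (adjusted p = 0.116). Fibronectin (FN1) and LTBP1, which holds latent TGF-beta in the matrix, were called higher at 72 h than at 24 h in the mean of both siRNAs (0.43 ± 0.09, adjusted p = 0.0364, and 0.53 ± 0.10, adjusted p = 0.028). IGFBP5 was called higher there too, by more (0.76 ± 0.11, adjusted p = 0.00841), beside 1.80% of all probe sets.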

How the data were processed

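The deposited table holds log2 RMA values, which the authors made in R 3.2.5 by background correction, quantile normalisation and median polish. It has 53617 rows and 14 columns, and 37519 rows without a gene in the platform annotation stayed out of the main tests. The genome build of that table is not given in the sources used here, and sequences are credited to RefSeq GRCh38.p14. Authors' scanner files were not used here, so distance from background is unknown. Where a gene had several probe sets, the one with the highest mean stood for it.

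Two-sided tests used lmFit and eBayes of limma 3.58.1 (R 4.3.3), and p-values were adjusted by Benjamini-Hochberg over the 16098 probe sets, with 0.05 as the threshold. CTCF siRNA, control siRNA and time contrasts came from the 12 siRNA arrays (6 groups), and contrasts with untransfected cells from all 14 arrays (7 groups). Each fit held the replicate number as a block, as the study's methods pair replicates. Same-numbered arrays deviated together only weakly (r of replicate differences -0.09 to 0.23 over 21 pairs of groups, 2 of them over 0.1). ± is the standard error of the fit. An array has no read depth, and the number of arrays limits the precision. The code was tested on simulated data.

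The rule for named genes took all 6 members in every comparison, CTCF, up to 4 called genes per list and comparison by size of difference, and the 3 genes most like each member. CD68 and SIGLECL1 were named by that rule. The members and lists were chosen with earlier results of these data known. Alternatives covered the block, the rows tested, a filter on level, variance settings, array weights, centring, the arrays in the fit and leaving out each array. Some listed genes are not reported here.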

Additional observations from a re-analysis of the deposited data

How the results depend on the processing

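In CTCF siRNA against control siRNA cells, 0 of 6 kallikrein genes were called at 24, 72 and 144 h and for the mean of the times under each alternative run. The same held for the interactions, and in all 13 of 23 counts kept their value. The signs of single estimates were less settled, and 11 of 24 turned when 1 array was left out. At 24 h the log2 differences then ran from -0.17 to 0.09 for KLK15, -0.17 to 0.29 for KLK2, -0.23 to 0.43 for KLKP1 and -0.08 to 0.17 for KLK4. At 72 h the ranges were -0.01 to 0.71 for KLK15, -0.24 to 0.32 for KLK3 and 0.00 to 0.33 for KLKP1, and at 144 h -0.12 to 0.51 for KLK1, -0.40 to 0.12 for KLK3 and -0.01 to 0.13 for KLKP1. The mean for KLKP1 ran from 0.00 to 0.22. At 144 h the 606 probe sets called in all became 531 to 861 under the other alternatives and 210 to 557 without 1 array, at 210 to 245 without any of the 4 arrays at 144 h.

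Counts that moved lay in the time contrasts and those with untransfected cells, and the cause was not tested. Without the replicate block, 1 gene (KLK3) was called in control siRNA cells at 144 h against untransfected cells, and 1 (KLK3) in place of 2 in the mean of the 6 siRNA groups. The numbers were not shown to pair arrays. With the block by description number, KLK2 was the 1 gene called in CTCF siRNA cells at 144 h against 24 h, in the mean of both siRNAs at 144 h against 24 h, and in the mean of the 6 groups, and 2 (KLK2 and KLK4) were called at 72 h against 24 h. With all rows tested, which adjusts over more probe sets, 0 were called for control siRNA 24 h, CTCF siRNA 24 h, CTCF siRNA 144 h and the mean of the 6 groups against untransfected cells, and 0 at 72 h against 24 h. The same count, 0, came for those 3 single contrasts from only the arrays compared, which leaves fewer samples, and with array weights for CTCF siRNA 24 h and the mean of the 6 groups. With probe sets above the median level alone, the contrasts with untransfected cells called 2 (control siRNA 144 h), 2 (CTCF siRNA 24 h), 1 (CTCF siRNA 72 h), 2 (CTCF siRNA 144 h) and 4 (mean of the 6 groups), and 144 h against 24 h called 2. A variance trend with robust fitting called 3 (control siRNA 144 h), 2 (CTCF siRNA 72 h), 2 (CTCF siRNA 144 h) and 4 (mean of the 6 groups) against untransfected cells, 2 each at 72 h and 144 h against 24 h in the mean of both siRNAs, and 1 each (KLK4) at 72 h and 144 h against 24 h in CTCF siRNA cells. Centring called 1 (KLK3) in control siRNA cells at 144 h.

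Without 1 array the counts ran from 0 to 2 for CTCF siRNA 144 h and the mean of the 6 groups, and from 0 to 1 for the other siRNA groups that moved, against untransfected cells, from 0 to 1 for CTCF siRNA 144 h against 24 h, and from 0 to 1 for both mean contrasts against 24 h.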
